A study of Drosophila melanogaster with 19 samples.

Results

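The peaks described here lie in the pericentromeric ends of 4 chromosome arms of Drosophila melanogaster. They were chosen by position alone, as the peaks of all 19 deposited lists that lie on 2L, 3L, 3R or X on the centromere side of a fixed bound in dm6, and they number 7270 of 82060 peaks, or 8.86%. The blocks, as measured out to the last annotated gene or peak, were 2L from 22000001 to 23513000, 3L from 22900001 to 28101773, 3R from 1 to 4199999 and X from 22600001 to 23538283. Together they span 11.9 Mb, which is 8.95% of the 5 main arms (2L, 2R, 3L, 3R and X).

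Pericentromeric DNA of the fly is rich in transposon remnants and satellite repeats and is packaged as heterochromatin, in which histone H3 carries methylated lysine 9 bound by HP1. Genes are sparse there and often long, because repeats fill their introns, yet some of them need this packaging to be expressed. The X block also holds ribosomal RNA genes, which exist in many copies, so that sequence reads from them are hard to place.

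AdMTase-seq was done on nuclei of S2-DRSC cells, a hemocyte-like line derived from embryos and spelled S2-DSRC in the labels. Nuclei were given an enzyme that methylates adenine in accessible DNA for 20 min at 37 °C, and short fragments with methylated adenine were recovered with an antibody. Of the 17 treated libraries, 8 used Hia5 (doses of 0.6, 2, 6, 20, 60 and 200 U), 3 used EcoGII and 3 Btr192IV (both with doses of 0.6, 2 and 6 U), 2 used EcoGI (0.6 and 2 U) and 1 used Hin1523 (2 U). As controls there were an immunoprecipitate of untreated cells and a DNA input, and of all 17 groups Hia5 2 U and Hia5 6 U had 2 libraries and the others 1. The labels do not say whether replicates came from separate cultures, so p-values measure only how these libraries vary, and that variation may be technical.

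Treated lists ran from 772 peaks (Hia5 60 U) to 13395 peaks (EcoGII 6 U), the untreated list held 1974 and the input list 32. Sequencing totals were not used here. A relative depth, taken from the smallest step between the authors' peak heights, ran from 7.28 to 14.1 in 16 treated libraries and was 25.5 in EcoGII 6 U, 11.3 for untreated cells and 0.673 for the input. Of all protein-coding genes, 49.1% had no peak in the gene or at its ends in any treated library. Of 10 markers of the hemocyte lineage 2 had none, namely the phagocytic receptor genes eater and NimC1. Hml had a peak in 1 of 17 libraries, Sr-CI in 6 and Pxn in 8. The type IV collagen genes Col4a1 and vkg had a peak in 15 each, and srp, ush and zfh1 in 16 each. The median of the 10 was 11.5 libraries. Of 5 markers of other lineages 1 had none, the muscle myosin gene Mhc, and the neuronal gene elav had a peak in 14 libraries. Mef2 had a peak in 15, vas in 12 and nau in 4, and the median of the 5 was 12, close to that of the hemocyte markers.

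The blocks hold few genes. The annotation lists 216 genes in them, of which 117 are protein-coding, or 9.87 per Mb against 114 per Mb in the rest of the 5 arms. Protein-coding genes were also longer, with a median of 6.53 kb against 2.15 kb elsewhere. Bases within 500 bp of either end of a gene, called gene ends here, make up 2.94% of the blocks and 19.4% of the rest. The 2L and X blocks, with 24.5 protein-coding genes per Mb each, are richer in genes than 3L with 8.27 and 3R with 3.33.

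The immunoprecipitate of untreated cells already had many peaks in the blocks, and the part of the antibody in this was not tested. The untreated list had 541 block peaks, which is 27.4% of it (95% Wilson interval 25.5 to 29.4). They lay at 45.6 peaks per Mb, 4.07 times the 11.2 per Mb of the rest of the arms. The input had 21 of its 32 peaks in the blocks (65.6%, interval 48.3 to 79.6), and 17 of these 21 were on X. These intervals cover counting error only and take no account of neighbouring peaks being related.

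Block peaks were few at most settings and many in 2 libraries. With Hia5 the blocks held 257 peaks (0.6 U), then 441 and 346 (2 U), 392 and 203 (6 U), 416 (20 U), 202 (60 U) and 642 (200 U). EcoGII gave 324, 436 and 1608 with increasing dose (0.6, 2 and 6 U). Btr192IV gave 266, 286 and 151 at the same doses. EcoGI gave 230 and 246 at the lower 2 of them, and Hin1523 gave 262. EcoGII 6 U, the library with the highest relative depth, thus had the most block peaks. Btr192IV 6 U, with a relative depth of 7.41, had the fewest. Hia5 0.6 U, the treated library of lowest relative depth (7.28), had 257. The part of depth in these counts was not tested.

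**Figure D1:**
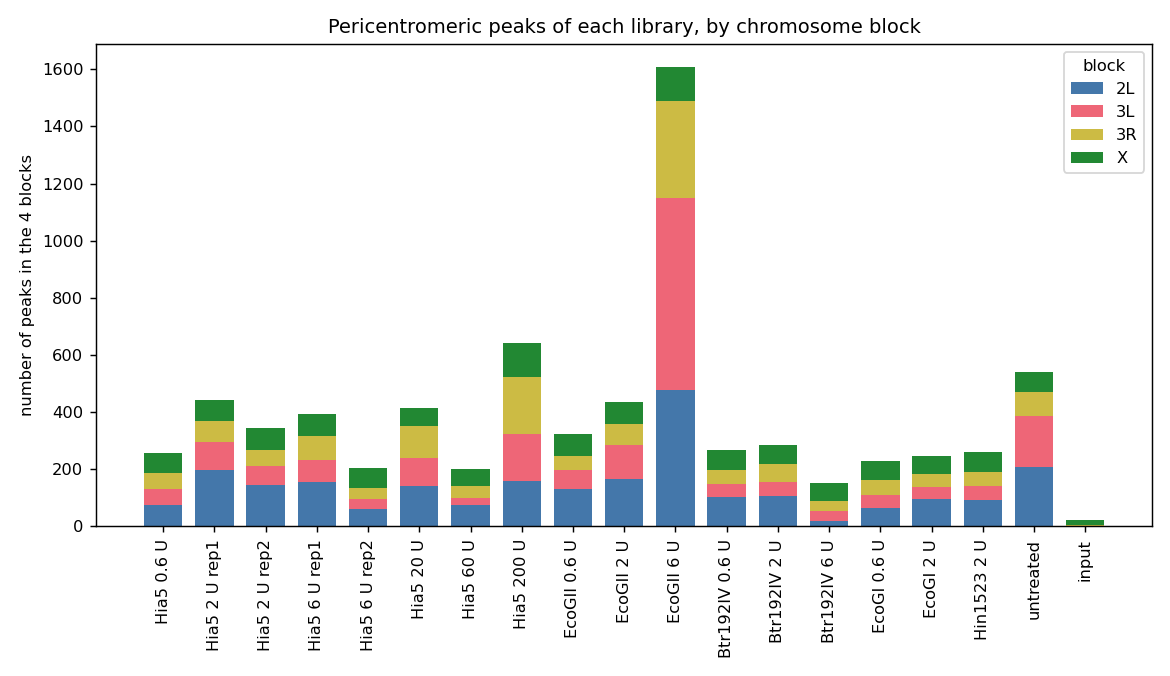
Number of peaks in the 4 pericentromeric blocks (vertical axis) in each of the 19 libraries (horizontal axis), with the blocks of 2L, 3L, 3R and X stacked in colour. EcoGII 6 U stands highest with 1608 peaks and the input lowest with 21, while the X part changes least.

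The X block changed least between libraries. It held 60 to 79 peaks in 15 of the treated libraries, 119 at Hia5 200 U and 120 at EcoGII 6 U, and 69 in untreated cells, which falls inside the range of the 15. The 2L block, in contrast, ran from 20 peaks (Btr192IV 6 U) to 478 (EcoGII 6 U), a 23.9-fold range. The 3L block ran from 24 (Hia5 60 U) to 673 (EcoGII 6 U), or 28.0-fold, and 3R from 36 (Btr192IV 6 U) to 337 (EcoGII 6 U), or 9.36-fold. Untreated cells had 208 peaks on 2L, 177 on 3L and 87 on 3R.

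Per length, 2L and X were the dense blocks and 3L and 3R the sparse ones. The median over the 17 treated libraries was 69.4 peaks per Mb on 2L and 74.6 on X, against 11.2 on 3L and 12.9 on 3R. Peaks of the 2 dense blocks differed in height. The median peak of the X block stood between the 80.2nd and 97.9th percentile of its list in every treated library, whereas that of 2L stood between the 2.01st (Hin1523 2 U) and the 51.0th percentile (Btr192IV 6 U).

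Along the blocks the peaks were uneven. In EcoGII 6 U the first 0.5 Mb of 2L from the bound held 238 peaks, against 61 in untreated cells and 0 at Hia5 60 U. On 3L that library had 165 and 168 peaks in the intervals from 0.5 to 1 and from 1 to 1.5 Mb. On 3R the interval from 3.5 to 4 Mb held 130 peaks in EcoGII 6 U, 109 at Hia5 200 U, 61 at Hia5 20 U and 46 at Hia5 6 U replicate 1, and 5 to 20 in the other treated libraries. In the last 0.2 Mb before the centromere-side end of the sequence Hia5 200 U had 41, EcoGII 6 U 28 and the other treated libraries 11 to 24. The untreated list had 20 and 17 in those intervals. On X, 68 of the 69 untreated peaks lay beyond 0.5 Mb from the bound.

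**Figure D2:**
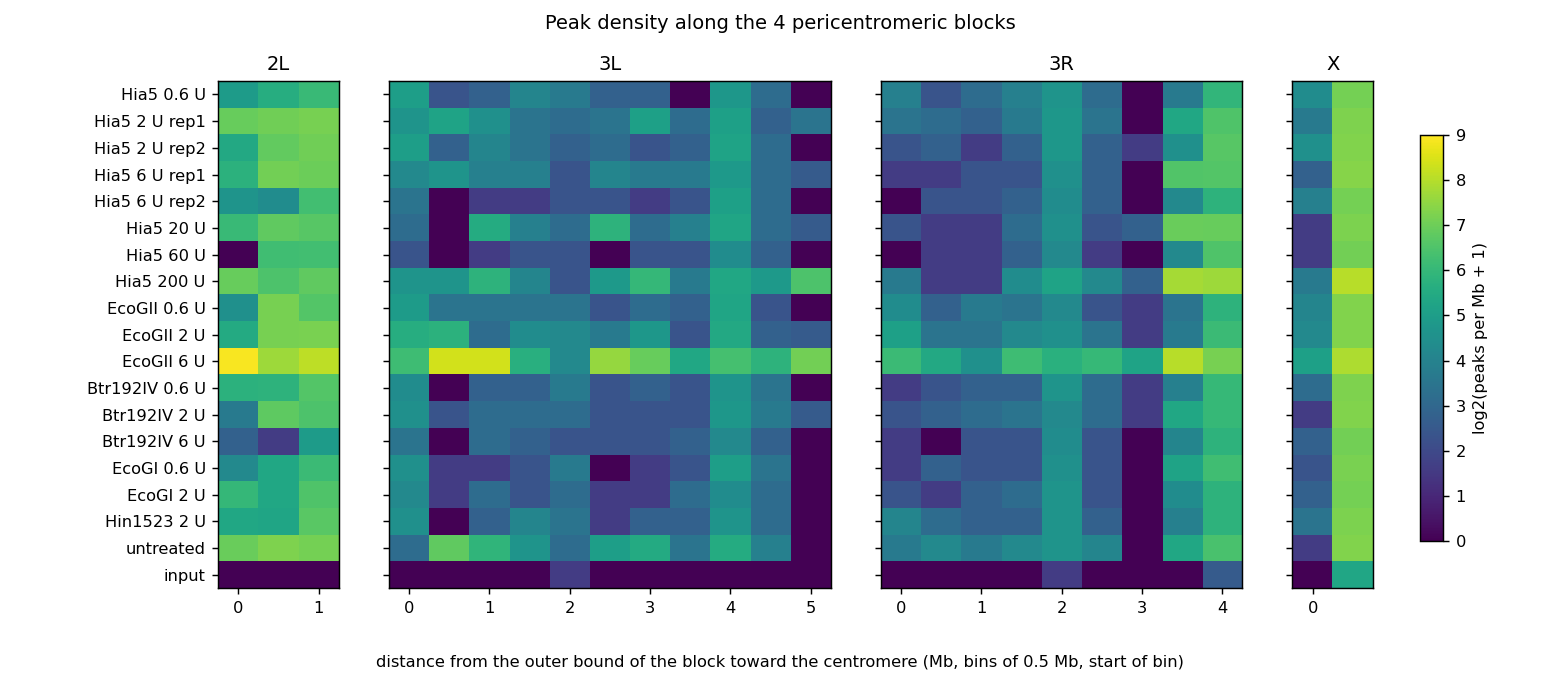
Peak density as log2(peaks per Mb + 1), shown by colour, in intervals of 0.5 Mb by distance from the bound of each block toward the centromere (horizontal axes, Mb) in the 19 libraries (rows). The last 13 kb of 2L are not drawn. EcoGII 6 U is brightest at the start of 2L with 238 peaks, and at the end of 3R, from 3.5 Mb on, both EcoGII 6 U (130 and 28 peaks) and Hia5 200 U (109 and 41) are bright.

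Some short stretches held peaks at nearly every setting. They were picked out after their values were seen. On X, the 90.9 kb from 23200802 to 23291729, with 19 annotated genes of ribosomal and related RNAs and their pseudogenes, held 37 to 48 peaks in each treated library. The untreated list had 45 peaks there and the input 10, so that treated and untreated counts overlapped. From there to the end of the block, treated libraries had 18 to 70 peaks, with 70 at Hia5 200 U, 52 at EcoGII 6 U and 22 in untreated cells. Between 18 and 25 peaks were found in the other 15 treated libraries.

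A run on 2L without an annotated gene, from 23072501 to 23092460, held 18 to 38 peaks in 16 treated libraries, 4 in Btr192IV 6 U and 35 in untreated cells. Its peaks were low in most lists, with medians from the 0.322nd to the 24.4th percentile of height. Another run on 2L without an annotated gene, from 23368661 to 23374512, held 5 to 12 peaks in every treated library and 10 in untreated cells. Its medians ranged from the 18.9th to the 94.2nd percentile. The 4.0 kb on 3R from 2085281 to 2089240, inside the gene Myo81F, held 7 to 9 peaks in every treated library and 9 in untreated cells. There the medians were between the 96.4th and 99.8th percentile. How reads from repeated sequence were placed is not given in the sources used here, and its part in these runs was not tested.

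The share of the list that lay in the blocks went up with the dose of Hia5 over its 8 libraries together, and this did not pass the threshold within the runs in which they were numbered. The share was 3.18% (0.6 U), then 7.76% and 5.62% (2 U), 13.7% and 9.52% (6 U), 16.7% (20 U), 26.2% (60 U) and 15.8% (200 U). All 17 treated shares were below the untreated 27.4%, although the interval of Hia5 60 U, 23.2 to 29.4, overlaps that of the untreated list. Over the 8 Hia5 libraries the share went with log10 dose with r = 0.83 (exact permutation p = 0.010, adjusted over 4 measures 0.020) and rho = 0.92 (exact permutation p = 0.00317, adjusted 0.00635). Without 200 and 0.6 U, r was 0.97, and without 200 and 60 U it was 0.95.

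Library numbers in the labels fall into 2 runs, and the values are given here within each. In the first run the share went from 7.76% at 2 U through 13.7% and 16.7% to 26.2% at 60 U and then 15.8% at 200 U. In the second it went from 3.18% through 5.62% to 9.52% at 6 U. With values centred and permuted within runs, a test chosen after seeing the data, the share gave r = 0.71 (exact permutation of 8 libraries, p = 0.0917, adjusted 0.183) and lost its call. The call was also lost without the 0.6 U library (r = 0.77, exact permutation, adjusted p = 0.0762) and without replicate 2 at 2 U (r = 0.81, exact permutation, adjusted p = 0.0524). The same held with replicates averaged to 6 doses (r = 0.83, exact permutation, adjusted p = 0.0778).

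**Figure D3:**
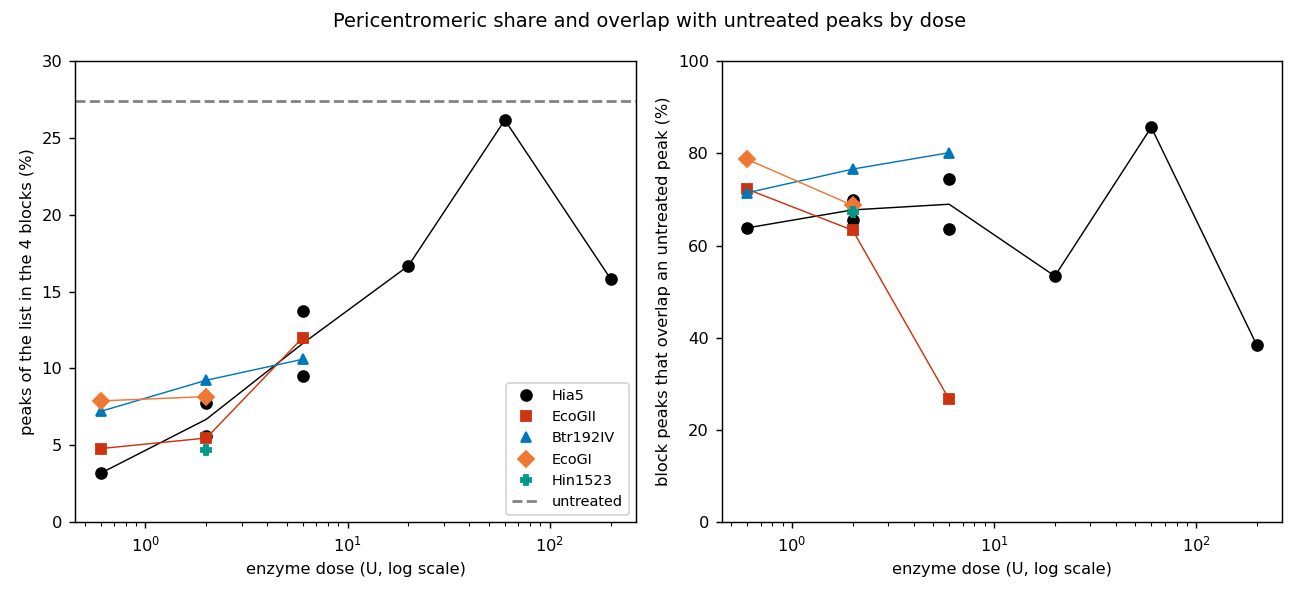
Share of each list in the 4 blocks (left, percent) and share of block peaks that overlap an untreated peak (right, percent) against enzyme dose in U on a log axis. Each point is 1 library, lines join the means per dose of an enzyme, and the dashed line is the untreated share of 27.4%. Hia5 climbs from 3.18% to 26.2% at 60 U on the left, and EcoGII falls to 26.6% at 6 U on the right.

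Peak density in the blocks showed no such trend with Hia5 dose under the main settings. It was 21.7 peaks per Mb (0.6 U), then 37.2 and 29.2 (2 U), 33.1 and 17.1 (6 U), 35.1 (20 U), 17.04 (60 U) and 54.2 (200 U). Its log2 went with log10 dose with r = 0.30 (exact permutation p = 0.469) and rho = 0.17 (exact permutation p = 0.691). Without 200 and 0.6 U, r was -0.49, and without 200 and 60 U it was 0.26. In 2 other settings, including lists of equal length, it passed the threshold. There r was 0.74 and 0.92 (exact permutation, adjusted p between 0.00377 and 0.0384). Outside the blocks the density dropped from 64.2 per Mb at 0.6 U to 4.48 at 60 U and was 27.6 at 200 U. The ratio of the densities, blocks over rest, accordingly went from 0.338 at 0.6 U to 3.81 at 60 U. Its log2 gave r = 0.87 (exact permutation p = 0.00595, adjusted 0.020) and rho = 0.92, with r = 0.96 under both ways of leaving out 2 doses, and it lost its call in the same cases as the share. Within runs it gave r = 0.77 (exact permutation p = 0.0444, adjusted 0.178).

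When each list was cut to its 772 highest peaks, the blocks of the 8 Hia5 libraries held between 50 peaks (0.6 U) and 202 (60 U). With runs pooled, the share still rose with dose. In lists of equal length the density is a fixed multiple of the share. Its log2 therefore rose as well (r = 0.92, exact permutation, adjusted p = 0.00377) and is no separate measure here.

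Hia5 6 U and 2 U, the groups with 2 libraries each, had shares of 11.6% ± 2.97 and 6.69% ± 1.52 (SD, n = 2). The difference was 4.93 points, and the lowest value at 6 U, 9.52%, was above the highest at 2 U, 7.76%. The exact two-sided permutation p was 0.333, which is the smallest that 2 against 2 libraries allow. Block peaks numbered 298 ± 134 with 6 U and 394 ± 67.2 with 2 U (SD, n = 2, exact permutation p = 0.667).

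The other enzymes had shares within the range of Hia5 at 0.6 to 6 U, which was 7.96% ± 4.00 (SD, n = 5). EcoGII gave 4.78%, 5.47% and 12.0045% at 0.6, 2 and 6 U, with a mean of 7.42% ± 3.99 (SD, n = 3). Btr192IV gave 7.20%, 9.23% and 10.6%, a mean of 9.01% ± 1.71 (SD, n = 3). EcoGI gave 7.89% and 8.17%, a mean of 8.03% ± 0.198 (SD, n = 2), and Hin1523 gave 4.72%. With doses pooled, none of the 3 enzymes with several libraries passed the threshold against Hia5 (exact two-sided permutation, adjusted over 6 comparisons, p = 0.952 for each). The smallest p possible was 0.0179 for 3 libraries and 0.0476 for 2. Within shared doses the mean difference from Hia5 was 0.255 points for EcoGII, 1.85 for Btr192IV and 3.09 for EcoGI, which has no 6 U library. All libraries of the other enzymes are of the second run, where Hia5 gave 3.18%, 5.62% and 9.52% at 0.6, 2 and 6 U. Replicate 1 of Hia5 at 2 and 6 U is of the first run, and the part of runs in this comparison was not tested.

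Most block peaks of the treated libraries coincided with untreated peaks. Overlap of at least 1 bp was found for 63.8% of Hia5 block peaks (0.6 U), then 69.8% and 65.6% (2 U), 63.5% and 74.4% (6 U), 53.4% (20 U), 85.6% (60 U) and 38.3% (200 U). EcoGII gave 72.2%, 63.3% and 26.6% with increasing dose. With Btr192IV it was 71.4%, 76.6% and 80.1%, with EcoGI 78.7% and 68.7%, and with Hin1523 67.2%. Hia5 200 U and EcoGII 6 U stood lowest, below all the others.

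Overlap did not follow the Hia5 dose (r = -0.32, exact permutation p = 0.439, and rho = -0.23, exact permutation p = 0.588). Without 200 and 0.6 U, r was 0.31, and without 200 and 60 U it was -0.40. The call came up without the 60 U library (r = -0.81, exact permutation, adjusted p = 0.0476). In lists cut to 772 peaks, overlap was 75.5% at 200 U and 85.6% to 91.8% in the other Hia5 libraries (r = -0.79, exact permutation, adjusted p = 0.00903). EcoGII 6 U, at 26.6% in its full list, had 88.2% in its highest 772 peaks, close to the 88.9% and 87.5% of EcoGII at 0.6 and 2 U.

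Compared with Hia5 at 0.6 to 6 U, which had 67.4% ± 4.63 (SD, n = 5), overlap was 8.61 points higher with Btr192IV (76.0% ± 4.38, n = 3, exact permutation p = 0.0536, adjusted 0.321). It was 13.4 points lower with EcoGII (54.0% ± 24.2, n = 3, exact permutation, adjusted p = 0.571) and 6.26 points higher with EcoGI (73.7% ± 7.07, n = 2, exact permutation, adjusted p = 0.571). None passed the threshold, and the EcoGII difference was 0.329 points without its 6 U library.

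Peaks with no counterpart in either control numbered 29 to 194 in 15 treated libraries, 396 at Hia5 200 U and 1180 at EcoGII 6 U. Hia5 20 U had 194 and Hia5 60 U had 29, the fewest. Of the untreated list, 541 peaks in the blocks could be met again. EcoGII 6 U met 82.6% of them, Hia5 2 U replicate 1 56.2% and Btr192IV 6 U 23.1%. On X, 46 of the 69 untreated peaks were met in all 17 treated libraries, and each of the 69 in at least 1. On 2L it was 8 of 208 in all 17, on 3L 4 of 177 and on 3R 17 of 87.

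Set against the rest of the arms within the same libraries, block peaks overlapped untreated peaks more often and lay in dense runs more often. A smaller share of them lay at gene ends, which are 2.94% of block bases and 19.4% of those of the rest. The log2 density differed by 0.0028 (blocks minus rest, permutation of signs over 17 libraries, 6 measures, adjusted p = 0.989), with 8 libraries higher and 9 lower in the blocks. Overlap with untreated peaks was 65.8% ± 14.8 in the blocks and 11.5% ± 5.49 in the rest (SD, n = 17). The difference of 54.4 points was positive in 17 of 17 libraries (permutation of signs, adjusted p = 6.0e-05). It was also positive in all 8 Hia5 libraries, by 51.4 points, and in all 9 libraries of the other enzymes, by 57.1 points. All these differences use the same single untreated list, whose own variation the p-value does not cover. Untreated peaks took up 123713 bases of the blocks, or 1.04%, and 250481 bases in the 121 Mb of the rest. How far the difference in overlap follows this coverage was not tested.

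The density comparison depended on which peaks were counted. Without peaks that overlap a control peak, block density was lower than that of the rest by a log2 difference of -1.48 (permutation of signs, adjusted p = 0.000337), and without dense runs, defined as 4 or more peaks with gaps of at most 1000 bp, by -0.77 (adjusted p = 0.00285). In lists of 772 peaks it was higher by 0.38 (permutation of signs, adjusted p = 0.0143), and without the 3L block by 0.51 (adjusted p = 0.0247). A block that was left out was counted with the rest. The rest also includes the centromeric end of 2R, and leaving out 2R changed none of the 6 calls.

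Block peaks came in dense runs, but not in every block. Of them 48.8% ± 10.5 lay in such runs, against 13.6% ± 8.91 in the rest (SD, n = 17), and the share was higher in the blocks in 17 of 17 libraries (permutation of signs, adjusted p = 6.0e-05). The median over treated libraries was 77.9% on 2L, 40.8% on X and 32.7% on 3R. On 3L it was 11.4%, with a range of 0% to 69.5%, below the median of 14.4% in the rest. Block peaks were wider as well, by 30.4 bp in the median and in 15 of 17 libraries (permutation of signs, adjusted p = 0.000648). Their median height stood 24.3 percentile points lower within the list, lower in 15 of 17 libraries (permutation of signs, adjusted p = 0.00042). Without the 2L block, which was then counted with the rest, it stood 1.43 points higher than in that rest (permutation of signs, adjusted p = 0.800). Height also stood higher in the blocks in lists of equal length and in the higher part of each list, by up to 20.0 points. Over these 3 reversed settings the adjusted p ran from 4.5e-05 to 0.800 (permutation of signs). Width was higher but not past the threshold in 3 settings, with differences of 8.12 to 13.5 bp. These included the settings without the 2L block (13.5 bp, permutation of signs, adjusted p = 0.0845) and without dense runs (8.47 bp, adjusted p = 0.224). In lists of equal length and without control peaks the width difference reversed, to -24.4 and -11.9 bp (permutation of signs, adjusted p between 0.0441 and 0.245).

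Gene ends took a smaller part of the block peaks. They held 12.5% ± 3.51 of block peaks and 35.8% ± 9.06 of the peaks elsewhere (SD, n = 17). The share was lower in the blocks in 17 of 17 libraries, by 23.2 points in the mean (permutation of signs, adjusted p = 6.0e-05). Gene ends make up 2.94% of the block bases and 19.4% of those elsewhere, and both shares of peaks were above these. How far the difference follows gene density was not tested. Among Hia5 libraries the block share was 19.8% (0.6 U), then 14.5% and 11.8% (2 U), 11.5% and 10.8% (6 U), 8.41% (20 U), 12.9% (60 U) and 5.61% (200 U). Untreated block peaks had 10.4% at gene ends.

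Merging the block peaks of the 17 treated libraries gave 1871 sites, most of them seen once. A single library held 1093 sites (58.4%), and 766 of these came from EcoGII 6 U and 162 from Hia5 200 U. Outside the blocks, 8358 of 18235 sites on the main arms (45.8%) were held by a single library. Sites found in at least 15 libraries numbered 108, or 5.77%, and 102 of them carried an untreated peak. In the rest of the arms 404 of 18235 sites (2.22%) were that widely shared, and 23.8% of those carried an untreated peak. All 69 block sites found in all 17 libraries carried an untreated peak, and 20 of them an input peak. Of the 98 such sites in the rest of the arms, 39 (39.8%) carried an untreated peak and 8 an input peak. On X 46 of 170 sites were found in all 17 libraries, against 5 of 470 on 2L, 4 of 763 on 3L and 14 of 468 on 3R.

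**Figure D4:**
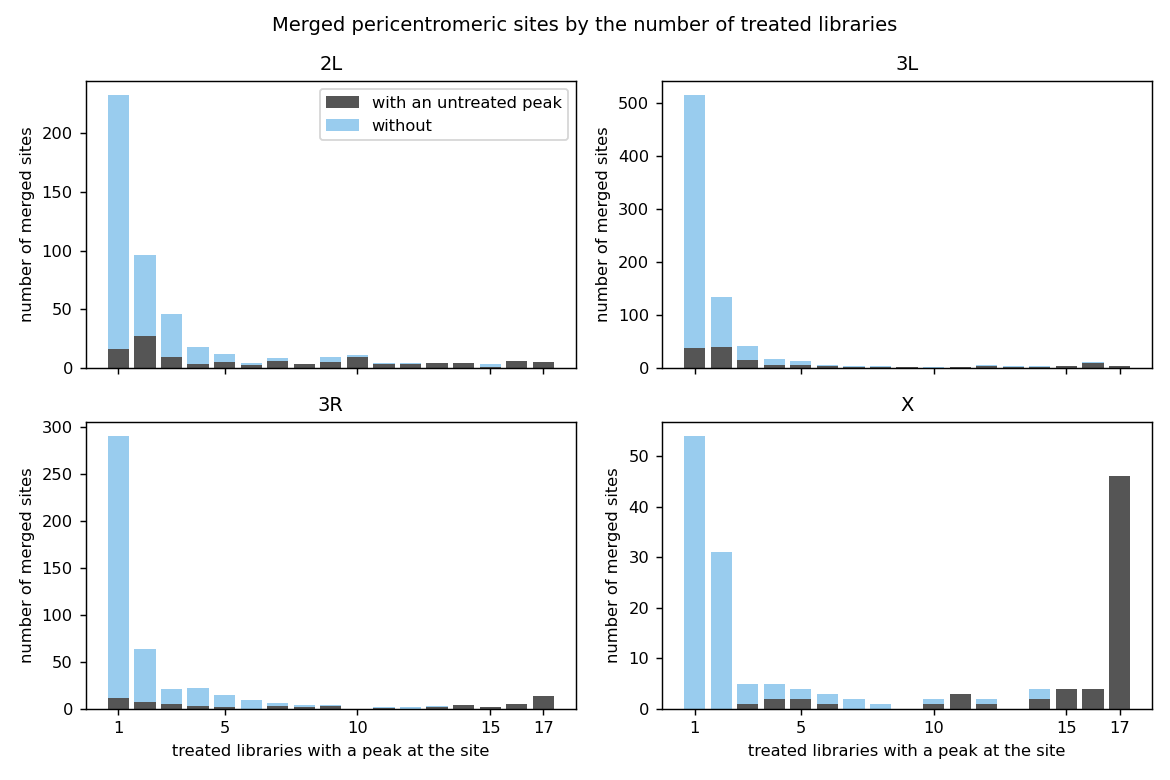
Number of merged sites (vertical axes, scaled per panel) by the number of treated libraries with a peak there (horizontal axes, 1 to 17) in the blocks of 2L, 3L, 3R and X. Dark bars are sites with an untreated peak and light bars those without. Sites of a single library lead in every block, and on X 46 sites were found in all 17 libraries.

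Only 6 of the 108 widely shared sites had no control peak. Mes2, a gene of a MADF domain protein expressed in mesoderm, held a pair of them. The site from 22947821 to 22949000 on 3L was found in 16 libraries, missing at Hia5 200 U, and the site from 22945201 to 22945760, at a gene end, in 15, missing at Hia5 60 and 200 U. Mean heights there stood at the 92.3rd and 93.4th percentile. On 2L the intergenic site from 22261021 to 22261460 was found in 15 libraries, with the same libraries missing, at the 91.3rd percentile, and another lay inside the gene CG3651. The other two were intergenic on 3L, from 27109001 to 27109280 and from 27666270 to 27666580, in 16 libraries each.

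Libraries shared part of their block peaks. Replicate 1 of Hia5 2 U met 52.8% of its peaks in replicate 2, which met 67.6% of its own in replicate 1. At 6 U the shares were 39.3% and 78.8%. Hia5 200 U found 67.9% of its block peaks in EcoGII 6 U, while EcoGII 6 U, with more peaks, found 26.6% of its own in Hia5 200 U. Btr192IV 0.6 U and Hin1523 2 U had the highest Jaccard index of covered bases of all pairs of treated libraries, 0.475, which is the shared part of the bases that either covers.

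Genes were reached less often at high Hia5 dose, inside the blocks as over the whole genome. A peak touched a gene end of 24 of the 117 protein-coding block genes at Hia5 0.6 U (20.5%), where 29.4% of all protein-coding genes were touched. At 2 U it was 13 and 10 block genes (11.1% and 8.55%, beside 17.6% and 17.7% of all genes) and at 6 U 7 and 1 (5.98% and 0.855%, beside 5.28% and 3.85%). The higher doses reached 5 block genes (20 U, beside 3.4% of all genes), 2 (60 U, beside 0.774%) and 2 (200 U, beside 3.89%).

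EcoGII reached 14, 29 and 22 block genes at their ends with increasing dose, beside 23.1%, 26.9% and 24.4% of all genes. In percent of the block genes these were 11.97, 24.8 and 18.8. Btr192IV reached 5, 5 and 2 (beside 9.39%, 7.01% and 1.89% of all genes), EcoGI 4 and 5 (beside 7.91% and 7.01%) and Hin1523 10 (beside 17.2%). The untreated list reached 6 block genes, or 5.13%, beside 1.31% of all genes. The block share was above that of all genes in the untreated list and at Hia5 6 U replicate 1, 20 U and 60 U, and below it in the other 14 treated libraries.

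Counting a peak anywhere in the gene or at its ends, Hia5 met 40 block genes at 0.6 U (34.2%, beside 34.9% of all protein-coding genes) and 28 in each library at 2 U (23.9%, beside 23.4% and 24.1%). It met 18 and 15 at 6 U (15.4% and 12.8%, beside 10% and 8.83%). The higher doses met 19, 8 and 17 (16.2%, 6.84% and 14.5%, beside 7.97%, 2.84% and 9.87%). Here the block share was above that of all genes in each Hia5 library from 6 U on.

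EcoGII met 34, 47 and 48 block genes in this way (29.1%, 40.2% and 41.03%, beside 29.1%, 32.5% and 33% of all genes). Btr192IV met 18, 18 and 11 (15.4%, 15.4% and 9.40%, beside 15.9%, 13.2% and 6.05%). EcoGI met 20 and 21 (17.1% and 17.9%, beside 12.9% and 12.4%), and Hin1523 met 26 (22.2%, beside 23.9%). The untreated list met 17 (14.5%, beside 5.15%) and the input 1 (0.855%, beside 0.043%).

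Across the treated libraries, 47 block genes (40.2%) had no such peak in any, beside 49.1% of all protein-coding genes, and 7 had 1 in at least 15 libraries (5.98%, beside 3.36%). At gene ends, 73 block genes (62.4%) had no peak in any treated library, beside 56.6% of all genes, and Mes2 alone had 1 in at least 15 (0.855%, beside 0.903%). Long genes offer more bases to such a count. Of the 7 genes, 5 were over 100 kb long, and 4 of these had no peak at an end in any treated library, while l(3)80Fg had 1 in 2 libraries.

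Myo81F, an unconventional myosin gene that spans 1966 kb of 3R, had peaks in 17 of 17 treated libraries. The peaks covered 2658 bases at Hia5 60 U, 9904 at Hia5 200 U and 27581 at EcoGII 6 U, and 3322 to 5716 in the other libraries. Untreated cells had 9735 bases there and the input 99. Pzl, a gene of the Piezo family of mechanosensitive channels, spans 709 kb and had 140 to 980 bases in 16 treated libraries, 2556 at EcoGII 6 U and 839 in untreated cells.

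Snap25, a synaptic SNARE gene of 225 kb on 3L, had 70 bases at EcoGI 0.6 U, 4669 at Hia5 200 U, 4879 at Hia5 20 U and 30049 at EcoGII 6 U. In untreated cells it had 3105, so that most treated libraries had fewer bases under peaks there than the untreated library. The lethal locus l(3)80Fg, 216 kb long, had 187 to 1319 bases in all 17 libraries and 360 untreated. Neither gene had an untreated peak at an end. The gene lovit, which encodes a transporter needed for histamine uptake into synaptic vesicles of photoreceptors, had none at Hia5 60 U, Btr192IV 2 U and Hin1523 2 U and 15603 bases at EcoGII 6 U.

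Mes2 differed from these in being short, 6.59 kb, and in carrying no untreated peak. Its bases under Hia5 peaks were 1443 (0.6 U), then 1550 and 1480 (2 U), 1567 and 1400 (6 U), 893 (20 U), 363 (60 U) and 0 (200 U). Hia5 libraries from 0.6 to 6 U thus lay between 1400 and 1567, above those at higher doses. EcoGII gave 1320, 1155 and 1380, Btr192IV 1000, 1000 and 1179, EcoGI 860 and 1280, and Hin1523 1420.

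Marf1, a regulator of messenger RNAs in the oocyte, had no untreated peak either. It had 22566 bases at EcoGII 6 U, 10030 at Hia5 200 U and 6032 at EcoGI 2 U, and 0 at Hia5 6 U replicate 1, Hia5 60 U, Btr192IV 2 U and Btr192IV 6 U. Parp1, which encodes a poly(ADP-ribose) polymerase, was met in 14 libraries with 89 to 798 bases and had 54 in untreated cells. Ir40a, an ionotropic receptor used to sense humidity, was met in 13 libraries, with 70 to 2239 bases, and had 132 untreated.

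On 2L the neighbours CG17493, lncRNA:CR46268 and Slmap carried untreated peaks at their ends. Slmap encodes a component of a phosphatase complex (STRIPAK). It had 2897 and 2675 bases in the Hia5 2 U libraries, 2560 and 0 at 6 U, 0 at 200 U and 3663 in untreated cells, and the 2 replicates at 6 U differed as widely at CG17493 (3014 and 0). Btr192IV 6 U had no peak in any of the 3 genes. Nubpl, needed for mitochondrial complex I, was met in 5 libraries and had 2981 bases untreated, and CG40470 in 8, with 25831 at EcoGII 6 U and 8524 untreated.

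The ribosomal RNA unit pre-rRNA:CR45856 on X was covered evenly. It had 1920 bases under peaks at Hia5 200 U and 2660 at Btr192IV 2 U, the lowest and highest of the treated libraries, 2360 in untreated cells and 465 in the input. The overlapping pseudogene 28SrRNA-Psi:CR45862 had 940 to 1470 bases, 1170 untreated and 165 in the input. These copies are near-identical, so reads may be split among them.

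**Figure D5:**
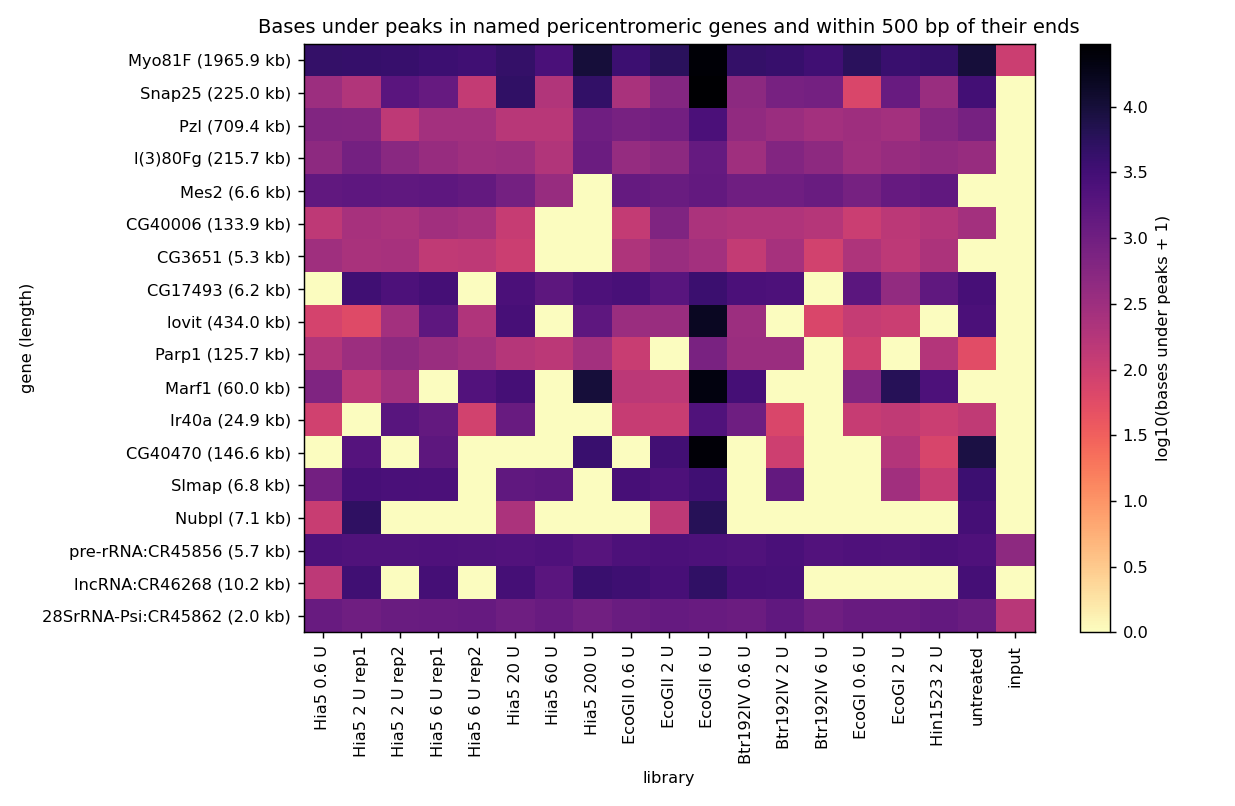
Bases under peaks in the gene and within 500 bp of its ends, as log10(bases + 1) shown by colour, for 18 named pericentromeric genes (rows, with length in kb) in the 19 libraries (columns). The ribosomal RNA rows are even in every treated library, Mes2 is covered in 16 treated libraries and not in untreated cells, and the column of EcoGII 6 U is the darkest in the long genes Myo81F and Snap25.

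Of the 30 genes listed as classical genes of heterochromatin, 26 lie in the blocks, and 20 of the 30 were not met at a gene end in any treated library, beside 56.6% of all protein-coding genes and 62.4% of those in the blocks. The G protein gene cta, required for gastrulation, was the most often met of those without untreated peak, at its ends in 10 libraries with 60 to 438 bases. Those were the Hia5 libraries at 0.6 and 2 U and all libraries of EcoGII, EcoGI and Hin1523, and Btr192IV 0.6 U. The vesicle traffic gene lt was met at Hia5 0.6 U (28 bases) and EcoGII 2 U (112). The adhesion gene alpha-Cat was met in 3 libraries, Hia5 0.6 U, EcoGII 0.6 U and EcoGII 2 U. The ribosomal protein gene RpL15 and the histone methyltransferase gene Set1 were each met at an end in 1, and the cohesin gene vtd inside the gene in 1. No peak in any of the 19 libraries was found at Gfat1 of the hexosamine pathway or su(f), which acts in forming messenger RNA 3′ ends. The same held for the synaptic vesicle genes stnA and stnB and the chitinase gene Cht10. Only these 5 of the 30 had no peak in any treated library, beside 49.1% of all protein-coding genes and 40.2% of those in the blocks.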

How the data were processed

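Peak lists of 19 libraries were analysed, 1 per library. The authors deposited for each peak its start, end and height in a tag-density signal, called at an FDR of 5% per the file names. Per the submitters' processing notes BWA 0.7.12, SAMtools 1.2 and dm6 were used. No peak caller, filter or treatment of repeats is given in the sources used here. Heights served only to rank peaks within a list, and as whole multiples of 1 step (tolerance 0.05 of a step) to give relative depth.

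Positions were made 1-based and set against an annotation of 17807 genes without strand, exons or sequence, so promoter sequences and motifs were not analysed here. Tests permuted libraries exactly, or signs with 100000 resamples (the smallest p these can give is 1e-05), two-sided, with Benjamini-Hochberg adjustment within a family (Python 3.11.15, scipy 1.17.1). Counting was tested on simulated data for 17 libraries, and all 17 were recovered. The 2 runs of 7 and 12 libraries are inferred from library numbers. Members and gene lists were chosen with earlier results of these data known. Named genes were those met in the most treated libraries, those with the most covered bases in untreated cells, per enzyme or at Hia5 200 U, and listed heterochromatin genes in the blocks.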

Additional observations from a re-analysis of the deposited data

Results flagged for a closer look

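EcoGII and Btr192IV moved in opposite directions between 0.6 and 6 U. The log2 number of block peaks per Mb rose by 2.31 with EcoGII and fell by 0.82 with Btr192IV, a difference of 3.13. Overlap of block peaks with untreated peaks fell by 45.6 points with EcoGII and rose by 8.70 points with Btr192IV, a difference of -54.3 points. Each dose had 1 library, so the difference was not tested. EcoGII 6 U had a relative depth of 25.5 and Btr192IV 6 U one of 7.41, and the part of depth in this was not tested. In lists of 772 peaks, overlap was 88.2% and 88% in those libraries.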

How the results depend on the processing

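Of 445 values recomputed under other settings, 380 kept their direction and their side of the threshold. All values of the difference between blocks and rest in overlap (47.1 to 71.9 points), gene ends (-29.4 to -3.87 points) and dense runs (17.4 to 41.8 points) did so. The cause of the changes below was not tested.

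The log2 density difference between blocks and rest was -0.0018 with blocks 500 kb wider, -0.55 in the higher part of each list, -1.48 without control peaks, -0.77 without dense runs, -0.45 without 2L and -0.31 without X. It was 0.38 in lists of equal length and 0.51 without 3L, and -0.12 to 0.10 with each library left out. Without the ribosomal RNA stretch, an alternative chosen after seeing the data, it was -0.22. Width reversed in lists of equal length (-24.4 bp) and without control peaks (-11.9 bp). Height percentile reversed in lists of equal length (9.05), in the higher part of each full list (20.0) and without 2L (1.43). In all these settings a block that was left out was counted with the rest.

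For the Hia5 trend, leaving out each library gave r from 0.771 to 0.965 for the share, -0.23 to 0.66 for log2 density and -0.81 to 0.36 for overlap. The share gave 0.827 with replicates averaged. Within library runs, chosen after seeing the data, it gave 0.710 and log2 density -0.0329. Log2 density passed the threshold in 2 other settings, including lists of equal length, with r of 0.741 and 0.923. Overlap gave -0.79 in lists of equal length and 0.31 without 200 and 0.6 U, where log2 density gave -0.49.

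For enzymes against Hia5, no setting passed the threshold. The share difference turned to 1.41, -0.470 and -0.558 points for EcoGII, Btr192IV and EcoGI without control peaks. For EcoGII it was 0.300 without X and 0.255 within shared doses, and for EcoGI -0.0573 without 3R, -0.292 without X and -0.220 without the ribosomal RNA stretch. Overlap of Btr192IV turned to -1.20 in lists of equal length. Leaving out each library gave -2.83 to 0.899 (EcoGII), -0.146 to 2.49 (Btr192IV) and -1.13 to 1.51 (EcoGI) for the share and -22.5 to 0.329 for EcoGII overlap.

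With same-numbered replicates of Hia5 paired (replicate block), the share difference between 6 U and 2 U stayed 4.93 points, 5.96 and 3.91 within pairs, with an exact permutation p of 0.5. The overlap difference of 1.23 points turned to -3.34 in lists of equal length and -1.70 in the higher part of each full list. It was -1.52 by covered bases, -1.72 without 3L and -4.20 to 6.66 with each library left out.

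Depth, list length and replicates limit these results. Most groups had 1 library, and a missing peak does not show closed DNA. The planned promoter sequences could not be read without a sequence table.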

Other observations

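Genes that encode proteins of heterochromatin lie mostly outside the blocks. Of 28 listed, 1 lies in the blocks (AGO3, of the piRNA pathway), and 10 had no peak in any treated library, beside 49.1% of all protein-coding genes. Those 10 included the gene of HP1a, the methyltransferase gene egg, the piRNA genes piwi and aub, and cid, the centromeric histone H3. At their ends, wde was met in 7 treated libraries, Su(var)3-7 in 6 and the H3 lysine 9 methyltransferase gene Su(var)3-9 in 4, and cuff, of the piRNA pathway, in 11. Untreated peaks reached the ends of 0 of the 28, beside 1.31% of all protein-coding genes.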
